A study of Mus musculus with 22 samples.

Results

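Among 11235 H3K27ac peaks of mouse liver, 935 (8.32%) were shorter than 10000 bases and overlapped neither an H3K4me3 peak of chow liver nor an H3K4me1 peak of either diet. These 935 regions were chosen by length and by the positions of peaks, with an overlap of 1 base counted as overlap. The H3K27ac peaks were themselves called on the pooled reads of each diet, so membership is not independent of H3K27ac level. Their H3K27ac signal was lower per kilobase than that of acetylated regions with either H3K4 mark, and few of them differed between the diets by the test. At an adjusted p under 0.05, 12 of them rose (1.28%) and 9 fell (0.963%) on the high-fat diet (HFD), and 914 were not called. Over all 11235 peaks 1.2% rose and 0.712% fell, so these shares are near the background. In the same size range, 3427 H3K27ac peaks overlapped H3K4me1 without H3K4me3, and 6129 overlapped H3K4me3. A further 744 peaks were 10000 bases or longer, and 9 of those lacked both H3K4 marks.

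The livers came from wild type C57BL/6J mice killed at 24 weeks of age after a night without food. Chow mice ate a standard chow throughout, and HFD mice were switched at 8 weeks of age and ate it for 16 weeks. Each diet had 3 H3K27ac and 3 H3K4me1 chromatin immunoprecipitation libraries and 3 mRNA libraries from powdered whole liver, with 1 pooled IgG control per diet, while the 2 H3K4me3 libraries were from chow only. The labels do not say how many livers went into a library or whether libraries of different marks share a liver, so p-values measure the spread between libraries, which may be technical.

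H3K27ac, the acetylation of lysine 27 on histone H3 by the CBP and p300 acetyltransferases, marks active promoters and active enhancers. The same tail carries H3K4me3 around the start sites of active genes, and H3K4me1, laid down mainly by MLL3 and MLL4, over enhancers. An active liver enhancer usually has both H3K27ac and H3K4me1, and H3K4me1 often flanks the acetylated nucleosomes or extends beyond them. "Lacking" here means that no H3K4 peak was retained there. The headers of the peak lists count 15355 H3K4me1 sites kept and 65578 removed by the false discovery filter for chow, and 8616 kept and 70743 removed for HFD. For H3K4me3 in chow, 13065 sites were kept and 13492 removed. H3K4 methylation below those limits is thus not excluded at any of the 935 regions, and H3K4me3 in HFD liver was not measured.

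H3K27ac counts over all union peaks ranged from 2037101 (HFD 1) to 5772962 (chow 3) per library. The median region among the 935 held 83 to 246 counts per library, and the lowest count in any region was 17. HFD library 1 was less like HFD 2 and HFD 3 than these were like each other. The chi-square per degree of freedom was 3.46 against HFD 2 and 2.41 against HFD 3, and 1.61 between HFD 2 and HFD 3. Chow libraries gave 1.74 to 2.44, so only the comparison of HFD 1 with HFD 2 lay above the chow range. In H3K4me1 the same comparison gave 5.53 and 4.67 against 2.68. In the mRNA libraries the 8 hepatocyte markers summed to 95098 to 102424 CPM on chow and 96305 to 106208 on HFD. Alb made up most of this sum, which hides markers that moved apart. Cps1 had 6800 to 7048 CPM on chow and 2723 to 3740 on HFD, and Tat and Hnf4a were also lower in every HFD library. Ttr was higher, with 3055 to 3419 CPM on chow and 5066 to 5140 on HFD. The diets overlapped for Alb, Apoa1, Apob and Serpina1c. The 11 exocrine pancreas markers summed to 308 to 1824 CPM on chow and 10.6 to 190 on HFD, so the diets do not overlap. The 6 measured markers of Kupffer cells and macrophages summed to 161 to 309 CPM on chow and 201 to 427 on HFD. The part of other cell types in the H3K27ac results was not tested, and in whole liver fewer cells of a type cannot be told apart from less mark per cell.

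Of the 935 regions, 546 (58.4%) lay within 10000 bases of another H3K27ac peak, about the share among peaks with H3K4me1 only (59.2%). Their lengths ran from 648 to 9509 bases with a median of 3270, against 3625 over all peaks, and together they covered 3366 kb. The median gap was 6096 bases to another H3K27ac peak, 8893 bases to an H3K4me1 peak and 26680 bases to an H3K4me3 peak. An H3K4me1 peak lay within 1000 bases of 147 regions (15.7%), and an H3K4me3 peak within 1000 bases of 37. In contrast, 374 regions (40%) had no H3K4 peak within 10000 bases, and 296 of those also had no other H3K27ac peak within that distance. The X chromosome held 2 of the 935, or 0.214%, against 99 of all 11235 peaks, or 0.881%. Peaks with H3K4me1 only had a like share on X, 0.204%, and peaks with H3K4me3 had 1.47%.

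**Figure D1:**
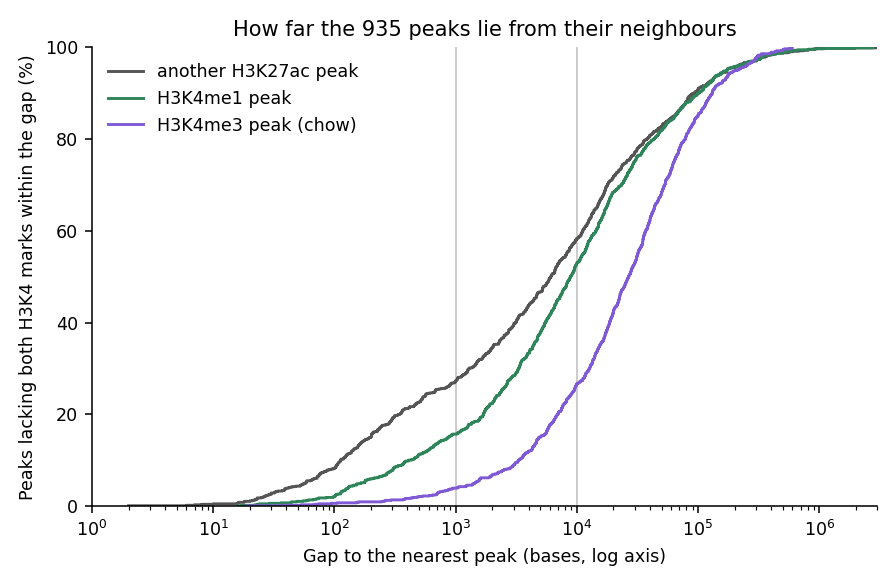
Cumulative share of the 935 H3K27ac peaks lacking both H3K4 marks (vertical axis, percent) within a given gap of the nearest peak of each kind (horizontal axis, bases, log axis), with grey lines at 1000 and 10000 bases. The H3K4me3 curve lies to the right: its median gap was 26680 bases, against 8893 for H3K4me1 and 6096 for another H3K27ac peak.

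Many of the regions touched a neighbour almost directly. Within 200 bases, 142 of the 935 (15.2%) had another H3K27ac peak, and 77 of those 142 had an H3K4me1 peak within 1000 bases. The nearest H3K27ac neighbour of these 142 overlapped H3K4me1 only in 66 cases and H3K4me3 in 30, was 10000 bases or longer in 12, and lacked both marks itself in 34. Such close spacing was about as common among peaks with H3K4me1 only (507 of 3427, 14.8%) and rarer among peaks with H3K4me3 (284 of 6129, 4.63%), a difference that was not tested.

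H3K27ac density was lower in the 935 regions than in peaks with an H3K4 mark, in every library. Density is given as CPM per kilobase, where CPM is counts per 1000000 counts over all union peaks after TMM scaling. The median over the regions was 13.3 CPM per kb, with a range of 8.52 to 51.4, against 15.3 for peaks with H3K4me1 only and 21.9 for peaks with H3K4me3. Per library, the median of the 935 was 14.0, 13.0 and 13.4 CPM per kb in chow 1 to 3, and 12.4, 13.6 and 12.9 in HFD 1 to 3, so the diets overlap. Classes were compared on the log2 scale, with totals that were not TMM-scaled and a pseudocount of 1 count. The difference from peaks with H3K4me1 only was −0.21 ± 0.04 (SD, n = 6), lower in 6 of 6 libraries (exact sign-flip permutation test, two-sided, p = 0.031, the smallest it can give). The difference from peaks with H3K4me3 was −0.72 ± 0.08 (SD, n = 6), also lower in 6 of 6 libraries, with the same exact p of 0.031. With only the 133 regions under 2000 bases, the differences were −0.11 and −0.60, each lower with the same exact p. Neither gap was shown to differ between the diets. The HFD minus chow change was −0.03 for the first (exact permutation test, two-sided, p = 0.3) and −0.06 for the second (p = 0.4), where 0.1 is the smallest p that 3 against 3 libraries allow.

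**Figure D2:**
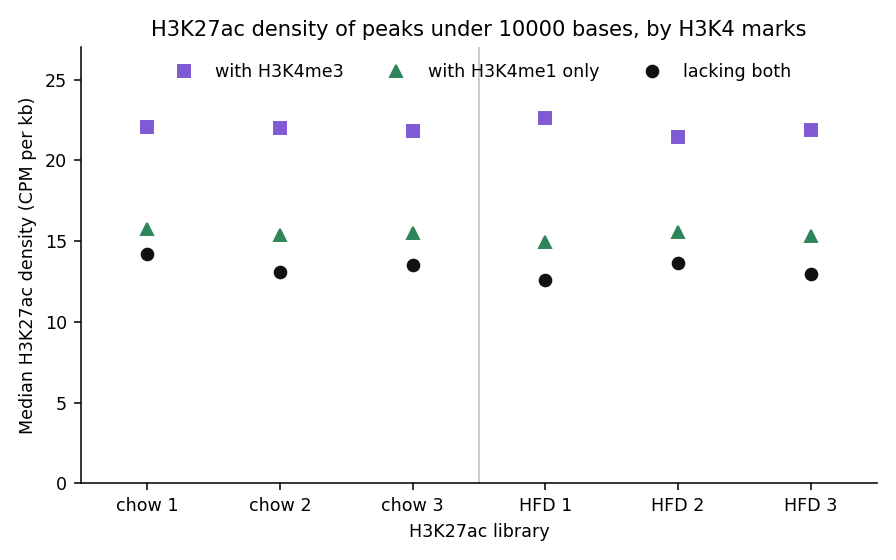
Median H3K27ac density (CPM per kb) of peaks under 10000 bases in each of the 6 libraries, for peaks lacking both H3K4 marks (circles), with H3K4me1 only (triangles) and with H3K4me3 (squares). The circles are lowest in all 6 libraries.

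The share of H3K27ac counts that fell in the 935 regions was 4.78%, 4.47% and 4.59% in chow 1 to 3 and 4.37%, 4.65% and 4.48% in HFD 1 to 3. The diets overlap, and the difference of −0.114 percentage points was within the spread (exact permutation test, two-sided, p = 0.5). The lowest shares came from HFD 1 and chow 2, which were also the shallowest libraries. Replicates scattered more here than over all peaks: the median coefficient of variation was 8.93% on chow and 10.7% on HFD, against 6.67% and 8.10% over all 11235 peaks, at fewer counts per region.

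A single region stood far above the others. chr1:90178965-90187716 (mm9) had 51.4 CPM per kb, the highest density among all 11235 H3K27ac peaks, while the next among the 935, chr5:141302687-141303444, had 27.4. Its level was 423, 433 and 449 CPM in chow 1 to 3 and 429, 481 and 483 in HFD 1 to 3, from 872 to 2592 counts per library. The diets overlap, and the log2 fold change was 0.10 ± 0.07 (SE; edgeR quasi-likelihood test, adjusted p = 0.588). Against its density, its enrichment was low: the authors' deposited chow list gives a fold enrichment over local background of 5.94, and the region is not in the HFD list. It lay 3406 bases from the nearest H3K4me1 peak, 3558 from the nearest H3K4me3 peak and 114641 from any other H3K27ac peak.

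The other dense regions were smaller, and several abutted neighbours. chr5:141302687-141303444 spanned 758 bases, 112 bases from the next H3K27ac peak, with 19.1, 24.6 and 23.2 CPM on chow and 18.7, 21.3 and 17.9 on HFD. chr19:4066272-4070066 (27.1 CPM per kb) lay 39 bases from its neighbour, with 108, 100.5 and 110.1 CPM on chow and 84.1, 110.4 and 104 on HFD. The diets overlap at both. Next came chr3:146230326-146232005 at 26.5 CPM per kb, chr10:128374285-128376875 at 25.1 and chr5:122149830-122151975 at 23.8. In all, 5 of the 935 exceeded 25 CPM per kb.

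Fold enrichment over local background, which the authors' peak caller computed on pooled replicates, ordered the classes the other way from density. In the authors' deposited chow list its median was 12.6 for the 935 regions, 11.1 for peaks with H3K4me1 only and 10.03 for peaks with H3K4me3. In the HFD list the medians were 10.7, 9.9 and 9.49. The pooled lists have no replicates, so these are descriptions. The most enriched on chow at 28.8-fold, chr12:35968339-35968986, was also the shortest of all at 648 bases, and it lay 235058 bases from the next H3K27ac peak. Its CPM was 20.5, 17.2 and 16.1 on chow and 9.3, 14.0 and 13.6 on HFD, so every HFD library was below every chow library, but the region was not called.

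The next in the chow list were chr8:47958107-47961069 at 28.1-fold, chr6:141137582-141139390 at 27.2, chr15:10890099-10890910 at 26.5, chr7:77645751-77646767 at 25.7 and chr13:110389884-110392809 at 24.8. In the HFD list chr10:127370603-127374462 led at 21.2-fold and had 50.6, 48.4 and 53.0 CPM on chow against 48.2, 53.9 and 56.0 on HFD, an overlap. It was followed by chr13:81463587-81465030 at 20.8, chr12:82289670-82292674 at 20.6, chr5:141302687-141303444 at 19.3, chr8:47958107-47961069 at 19.2 and chr6:140227051-140231911 at 18.9. None of these enriched regions was called between the diets.

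Most of the regions came from the chow peak list. Of the 935, 622 (66.5%) overlapped only a peak of the chow list, 181 (19.4%) peaks of both lists and 132 (14.1%) only a peak of the HFD list. Over all 11235 peaks these shares were 40.2%, 44.6% and 15.3%. The chow list held 9651 peaks from 74496903 tags, and the HFD list 6852 peaks from 62948328 tags, and the part of this difference in the shares was not tested. Few regions held by 1 list were called, mostly in the direction of that list. Of the 622 chow-list regions 9 were lower on HFD and 2 were higher, and 9 of the 132 HFD-list regions were higher. Over all 11235 peaks 1.2% were higher and 0.712% lower. The median log2 fold change was −0.11 for chow-list regions, −0.00091 for those in both lists and 0.14 for HFD-list regions. Calls and medians rest on the same reads as the lists, so a lean in the direction of the list is built in. They are a description, and no conclusion is drawn from the comparison with all peaks.

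**Figure D3:**
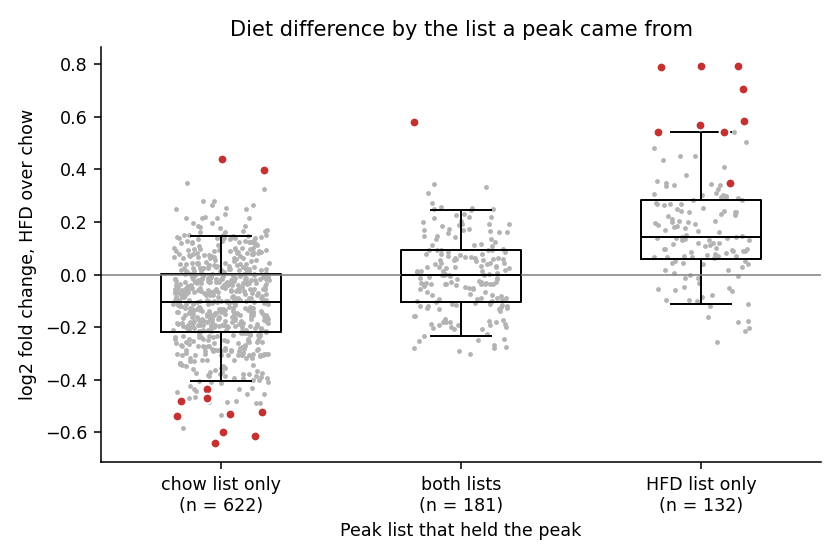
Fitted log2 fold change of HFD over chow (vertical axis) for the 935 regions, by the peak list that held them; boxes show the median and quartiles, whiskers the 5th to 95th percentiles, grey points single regions and red points the 21 called ones. The chow-list median is −0.11 and the HFD-list median 0.14, and 1 of the 181 regions in both lists was called.

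Differences between the diets were few and small. All 935 regions passed the filter on low counts, as did all 11235 peaks. By edgeR's quasi-likelihood test with Benjamini-Hochberg adjustment over all 11235 peaks, 12 of the 935 rose (1.28%) and 9 fell (0.963%), while over all peaks 1.2% rose and 0.712% fell. The shares of adjusted calls among the 935 are thus near the background. An unadjusted p under 0.05 was found for 185 of the 935 regions and 1577 of all 11235 peaks (14%), a larger share among the 935. DESeq2, which gave an adjusted p for 652 of the 935 regions, called 6 higher and 5 lower, against 0.946% and 0.532% of the 10145 peaks to which it gave one. In the authors' deposited table, 11 regions were higher and 8 lower at an adjusted p under 0.05, against 1.77% of all peaks called in either direction, and all 19 were also called here in the same direction.

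No region changed by a log2 value over 1, and the largest fold was 1.73. In 757 of the 935 (81.0%) the fitted fold was at most 1.2, and it exceeded 1.5 in 8. The bulk was shifted slightly down: the median log2 fold change was −0.05 against −0.0068 over all peaks, and 580 of 935 (62.0%) were below 0, against 52.1% of all peaks. By list, the median was −0.11 for the 622 chow-only regions and 0.14 for the 132 HFD-only ones. It was −0.00091 for the 181 in both lists, with 50.8% below 0. These lists rest on the same reads, so the shift is a description, and the part of list membership in it was not tested. When a library was left out, the median of the 935 ranged from −0.09 without HFD 2 to −0.02 without HFD 1, and the share below 0 from 67.0% to 55.3%. All 3 HFD libraries were below all 3 chow libraries in 132 regions (14.1%, against 9.82% of all peaks) and above them in 70 (7.49%, against 9.5%). Peaks with H3K4me1 only had 13.6% wholly below and 10.9% wholly above, so the share below is not particular to the 935. Regions with no H3K4 peak within 10000 bases had a median of −0.09, with 3 higher and 5 lower of 374. Those with an H3K4 peak within 1000 bases had a median of −0.05, with 5 higher and 1 lower of 170. Over all peaks 1.2% were higher and 0.712% lower. Regions in the HFD list only made up 10.7% of the first group and 17.6% of the second. The difference between these small groups was not tested.

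**Figure D4:**
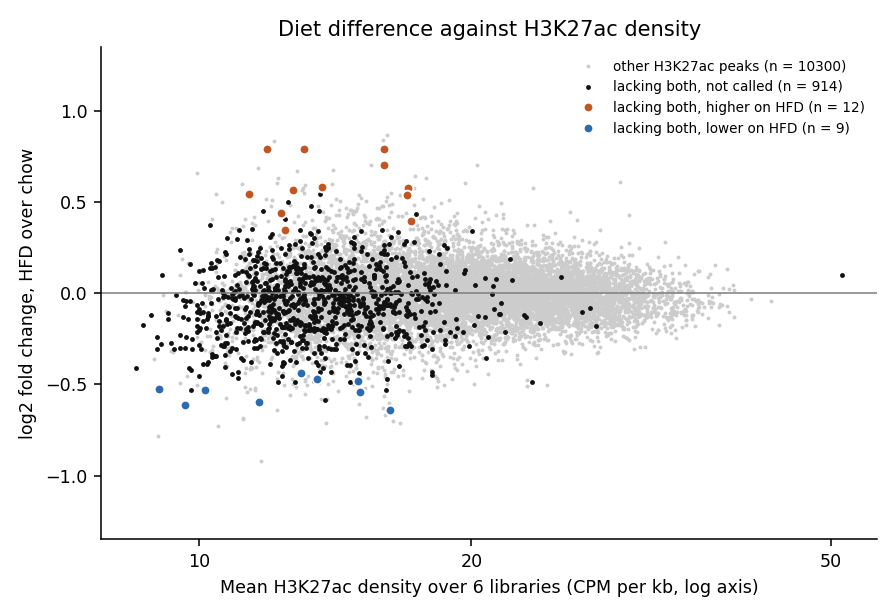
Fitted log2 fold change of HFD over chow (vertical axis) against mean H3K27ac density over 6 libraries (CPM per kb, log axis) for the 935 regions (black; called ones orange and blue) over the other 10300 peaks (grey). The called regions lie between 9.02 and 17.2 CPM per kb, within the range of the other regions, and the point at 51.4 CPM per kb is chr1:90178965-90187716.

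The number of calls moved with single libraries. The calls over all 11235 peaks moved in the same way. Without chow 1 the counts were 3 higher and 4 lower (0.187% and 0.223% of all peaks), without chow 3 they were 3 and 3 (0.187% and 0.205%), and without HFD 3 they were 7 and 4 (0.409% and 0.258%). Without HFD 2 they rose to 22 higher and 22 lower (2.4% and 1.53% of all peaks), with 17 of the 21 calls retained. Without HFD 1, 18 were higher and 13 lower (1.48% and 0.846%), and 20 of the 21 calls were retained. No call changed direction in any of these fits. The calls at chr4:43984320-43988197, chr9:60826368-60834531, chr1:159001409-159008239, chr1:72764039-72771402 and chr9:106028655-106036314 held whichever library was left out, and with DESeq2. DESeq2 kept 11 of the 21 calls, gave no adjusted p at chr9:116259558-116261405, and lost 9. The lost calls were at chr11:117852580-117858168 (adjusted p = 0.2), chr2:101995572-101998689 (0.0655), chr11:106587670-106592448 (0.0988), chr11:86386533-86390259 (0.0743), chr10:40238508-40244632 (0.103), chr5:131332353-131336635 (0.0953), chr11:112580294-112583308 (0.114), chr3:104343435-104347534 (0.0556) and chr6:29048774-29052752 (0.0585).

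**Figure D5:**
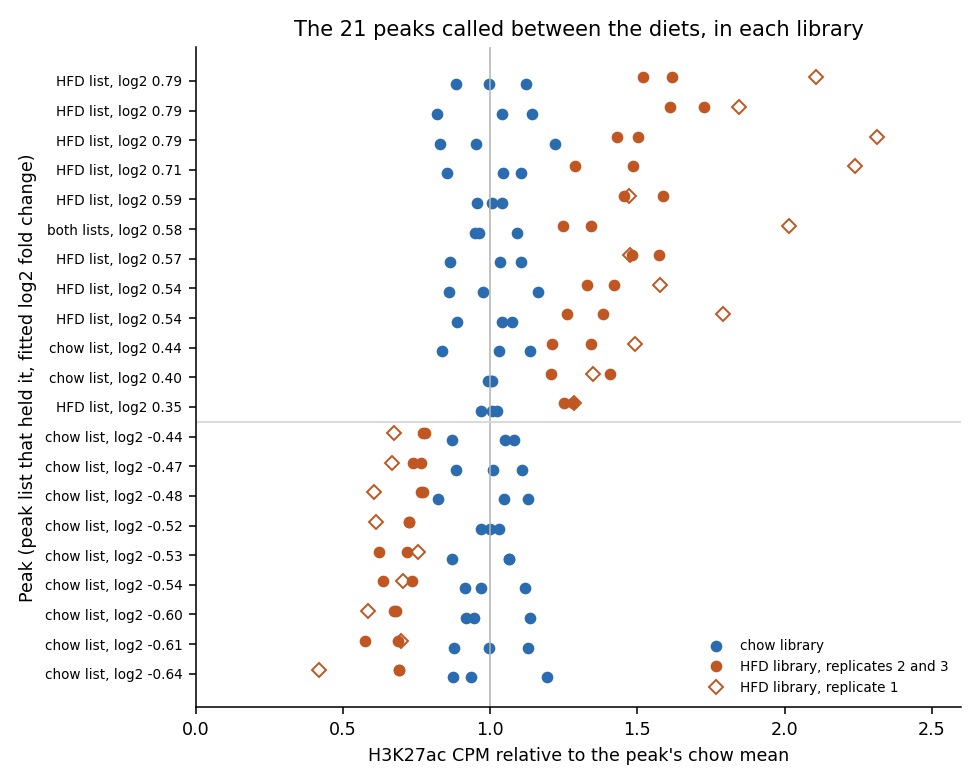
The 21 called regions in each library, as CPM relative to the region's chow mean (horizontal axis), ordered by fitted log2 fold change (vertical axis, with the peak list that held the region); blue points are chow libraries, filled orange points HFD 2 and 3, open diamonds HFD 1. The diets do not overlap in any of the 21, and HFD 1 is the highest library by a wide margin in several of the rising regions.

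The best supported rise was at chr9:60826368-60834531, an 8164-base region on chromosome 9 that was in the authors' deposited HFD list only, at a fold enrichment of 12.8. It had 81.2, 74.1 and 58.2 CPM on chow and 131, 122.7 and 115 on HFD. Every HFD library was at least 1.41 times the highest chow library. The log2 fold change was 0.79 ± 0.11 (SE; edgeR, adjusted p = 0.00037), and the authors' deposited table gives 0.45. An H3K27ac peak with H3K4me1 at chr9:60793353-60800240, 26128 bases away, also rose, by a log2 value of 0.58 ± 0.09 (adjusted p = 0.0012). The H3K4me1 peak there, 26073 bases from the region, had a log2 fold change of 0.31 ± 0.12 and was not called (adjusted p = 0.145).

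chr4:43984320-43988197 had 36.7, 41.4 and 32.5 CPM on chow and 77.7, 56.0 and 59.6 on HFD, with no overlap. Its log2 fold change was 0.79 ± 0.13 (SE; edgeR, adjusted p = 0.0015). An H3K27ac peak with H3K4me1 lay 2303 bases away and had 0.46 ± 0.13, which was not called (adjusted p = 0.075). chr1:159001409-159008239 had 77.5, 71.1 and 75.1 CPM on chow and 109.7, 109 and 118 on HFD, with close replicates on both diets. It rose by a log2 value of 0.59 ± 0.09 (adjusted p = 0.00082). It ended 108 bases from an H3K27ac peak with H3K4me1, whose own value of 0.30 ± 0.09 was not called (adjusted p = 0.0991), and the H3K4me1 peak 74 bases away had 0.06 ± 0.09.

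On chromosome 15, a pair of regions separated by 103 bases rose together. chr15:74760478-74764465 had 51.4, 58.3 and 50.7 CPM on chow and 108, 71.8 and 66.8 on HFD. chr15:74764568-74767748 had 35.3, 45.1 and 30.6 CPM on chow and 85.6, 53.0 and 55.5 on HFD. In both, HFD 1 was far above HFD 2 and HFD 3, and the log2 fold changes were 0.58 ± 0.13 (edgeR, adjusted p = 0.0189) and 0.79 ± 0.15 (adjusted p = 0.0082). Both calls were lost without chow 1 (adjusted p = 0.149 and 0.0849) and without chow 3 (0.128 and 0.0829). Their nearest H3K4me1 peak was at 0.14 ± 0.15 and was not called (adjusted p = 0.655).

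HFD 1 was also well above HFD 2 and HFD 3 at a further pair of rising regions, on chromosome 11. chr11:117852580-117858168 had 69.9, 74.1 and 57.1 CPM on chow and 150.02, 86.3 and 99.5 on HFD, a log2 fold change of 0.71 ± 0.14 (edgeR, adjusted p = 0.0096). Its value ranged from 0.50 to 0.87 over the fits without a library, and the call was lost without chow 1 (adjusted p = 0.0687) and chow 3 (0.1). chr11:103121189-103127079, which lay 607 bases from an H3K4me3 peak, had 71.5, 86.5 and 84.0 CPM on chow and 145, 102 and 112 on HFD. It rose by 0.54 ± 0.11 (adjusted p = 0.0106), a call that was lost without chow 1 (0.141) and chow 3 (0.0501). Neither had another H3K27ac peak within 50000 bases.

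Other rising regions had closer HFD replicates. chr9:116259558-116261405, a 1848-base region 172022 bases from the next H3K27ac peak, had 19.3, 16.1 and 20.6 CPM on chow and 27.5, 29.4 and 27.6 on HFD, a log2 fold change of 0.57 ± 0.15 (edgeR, adjusted p = 0.0439). Only without HFD 1 did it keep its call, and the highest adjusted p was 0.159, without chow 1. chr10:40238508-40244632 had 65.0, 68.6 and 67.5 CPM on chow and 86.1, 83.7 and 86.0 on HFD. Its rise of 0.35 ± 0.09 (adjusted p = 0.0363) was the smallest of the 12, and it kept its call only without HFD 1 or HFD 2 (highest adjusted p 0.195, without chow 1). An H3K27ac peak with H3K4me1 147 bases away, chr10:40233366-40238361, rose by nearly the same amount, 0.36 ± 0.09.

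Of the remaining rising regions, chr2:101995572-101998689 had 28.3, 33.7 and 24.9 CPM on chow and 45.7, 38.5 and 41.2 on HFD, a log2 fold change of 0.54 ± 0.13 (edgeR, adjusted p = 0.0357). The other two regions were in the chow list and not in the HFD list although their counts were higher on HFD. chr11:106587670-106592448 had 51.7, 56.8 and 41.9 CPM on chow and 74.8, 67.2 and 60.6 on HFD (log2 0.44 ± 0.11, adjusted p = 0.0466). chr11:86386533-86390259 had 55.3, 54.6 and 55.2 CPM on chow and 74.3, 77.5 and 66.5 on HFD (log2 0.40 ± 0.10, adjusted p = 0.0285). The latter lay 7 bases from an H3K27ac peak with H3K4me1 whose own value was 0.07 ± 0.09 (adjusted p = 0.787). Peak-list membership and counts thus point in different directions at these 2 regions. Without chow 1, chow 3 or HFD 3 none of the 3 was called, with adjusted p from 0.0509 to 0.313, and the last was also lost without chow 2 (0.0804) and HFD 2 (0.0946).

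All 9 falling regions came from the chow list only. The lowest adjusted p was at chr9:106028655-106036314, with 99.6, 123.2 and 102 CPM on chow and 63.4, 73.6 and 72.9 on HFD, a log2 fold change of −0.60 ± 0.10 (SE; edgeR, adjusted p = 0.0022). Another member, chr9:106039057-106043294, began 2743 bases further on and fell with it, from 43.5, 55.7 and 49.2 CPM to 34.4, 28.4 and 34.0 (−0.61 ± 0.13, adjusted p = 0.0123). The second call was lost without chow 2 (0.0676) and chow 3 (0.0752). The H3K4me1 peak nearest to this pair was at −0.07 ± 0.08 and was not called (adjusted p = 0.679). chr1:72764039-72771402 had 81.2, 76.3 and 78.8 CPM on chow and 48.2, 57.1 and 57.1 on HFD, with tight chow replicates, and fell by 0.52 on the log2 scale (SE 0.09, adjusted p = 0.0049).

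The lowest fold change was at chr17:85129438-85131979, with 48.2, 61.6 and 45.0 CPM on chow and 21.6, 35.6 and 35.6 on HFD (log2 −0.64 ± 0.15, edgeR, adjusted p = 0.0231). HFD 1 was far below the other HFD libraries here, and the call was lost without chow 1, chow 2, chow 3 or HFD 3 (adjusted p from 0.05 to 0.124). An H3K27ac peak with H3K4me1 10425 bases away, chr17:85142404-85144444, fell alongside (−0.69 ± 0.16, adjusted p = 0.021). chr19:36703825-36707005 had 63.3, 55.0 and 51.8 CPM on chow and 39.8, 36.0 and 41.7 on HFD (−0.54 ± 0.11, adjusted p = 0.0144), and its call was lost without chow 1 (0.153). It was 164 bases from an H3K27ac peak with H3K4me1, which had −0.31 ± 0.09 and was not called (adjusted p = 0.0992).

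chr6:29048774-29052752, the most enriched of the falling regions at 18.9-fold in the authors' deposited chow list, had 41.4, 50.6 and 50.6 CPM on chow and 35.9, 29.6 and 34.0 on HFD (log2 −0.53 ± 0.13, edgeR, adjusted p = 0.0273). chr3:104343435-104347534 had 81.0, 59.0 and 74.97 CPM on chow and 43.3, 55.3 and 54.8 on HFD (−0.48 ± 0.11, adjusted p = 0.028). Its chow 2 value lay close to the HFD values, but the diets do not overlap. chr11:112580294-112583308 had 52.3, 41.8 and 47.6 CPM on chow and 31.5, 34.9 and 36.1 on HFD (−0.47 ± 0.12, adjusted p = 0.0433). chr5:131332353-131336635, 600623 bases from any other H3K27ac peak, had 66.8, 55.4 and 68.9 CPM on chow and 42.8, 49.1 and 49.6 on HFD (−0.44 ± 0.11, adjusted p = 0.0343). Without chow 3 or HFD 3 none of these 4 was called, with adjusted p from 0.09 to 0.228. The last 3 were also lost without chow 1 (0.188 to 0.254), the chromosome 6 region without chow 2 (0.104) and HFD 2 (0.0768), and chr11:112580294-112583308 without HFD 1 (0.0541) and HFD 2 (0.0501).

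H3K27ac peaks beside a called region tended to share its sign. Of the 21 called regions, 12 had another H3K27ac peak within 10000 bases, and in all 12 the nearest had a fold change of the same sign, with 5 of these neighbours called. The regions of the adjacent pairs on chromosomes 15 and 9 are among the 12, and each is the other's called nearest neighbour. Of the 5 called neighbours, only chr10:40233366-40238361 is not itself among the 21. Within 50000 bases, 16 of the 21 had neighbours, and 35 of 39 neighbours had the same sign, where a peak near 2 regions is counted for each. A called neighbour of the same sign was found for 8 of the 16, which include both regions of each pair. Adjacent peaks can share fragments at their borders, and no test was made of these counts. No share for regions that were not called is given here.

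The H3K4me1 peaks beside the called regions did not pass the test themselves. Of the 21 called regions, 8 had an H3K4me1 peak within 5000 bases, and in 6 of the 8 its fold change had the same sign. All 8 of these fold changes were positive, so the 6 are the ones beside rising regions. The peaks beside the falling regions on chromosomes 19 and 17 had 0.15 and 0.27. Of the 422 H3K4me1 peaks within 5000 bases of any of the 935, 68.2% were above 0. By edgeR 0 of the 8 were called at an adjusted p under 0.05 and 4 at an unadjusted p under 0.05, and DESeq2 called 0. Over all 935 regions, 422 H3K4me1 peaks lay within 5000 bases, of which 2 rose and 4 fell, against 0.683% and 0.879% of all 16834 H3K4me1 peaks. The regions next to these 6 peaks were themselves not called, with adjusted p from 0.23 to 0.996.

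Among those 6, the H3K4me1 peak at chr9:48638357-48643749 had the lowest adjusted p, with 119, 118 and 118 CPM on chow and 78.2, 79.0 and 85.7 on HFD. Its log2 fold change was −0.55 ± 0.09 (SE; edgeR, adjusted p = 0.0012), while the acetylated region 4752 bases away had −0.02 and was not called (adjusted p = 0.95). The H3K4me1 peak at chr12:71813522-71815880 had 18.1, 23.9 and 19.6 CPM on chow and 33.3, 38.5 and 25.7 on HFD, a rise of 0.66 ± 0.15 (adjusted p = 0.0164), beside an acetylated region at −0.01 (adjusted p = 0.982). Whether the marks differed in their diet response there was not tested.

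The 422 flanking H3K4me1 peaks had a median log2 fold change of 0.07, and 68.2% were above 0, against 0.0074 and 51.7% over all H3K4me1 peaks. Of the 422, 329 overlapped an H3K27ac peak of another class, with a median of 0.09, and 93 overlapped none, with a median of 0.04. Over all H3K4me1 peaks the medians were 0.03 for the 7811 on an H3K27ac peak and −0.02 for the 9023 on none. This shift depended on HFD libraries 1 and 2: the median of the 422 was 0.12 without HFD 1 and 0.02 without HFD 2. The calls moved further, to 40 higher and 7 lower without HFD 1, when 5.42% of all H3K4me1 peaks were higher and 6.67% lower. In either direction 1 of the 422 was called without HFD 2, chow 1 or chow 3 (0.469%, 0.279% and 0.386% of all H3K4me1 peaks), and 2 without chow 2 (0.202% of all).

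The length limit of 10000 bases decided membership for a few long regions. Just inside it lay chr13:24966678-24976186 (9509 bases, 13.5 CPM per kb), chr1:184406498-184415924 (9427 bases, 12.7) and chr9:36873992-36883382 (9391 bases, 9.1). Just outside were chr13:98208019-98218075 (10057 bases, 16.7), chr9:21470393-21480546 (10154 bases, 12.1) and chr2:172270968-172281189 (10222 bases, 21.9). chr9:21470393-21480546 had 99.2, 86.9 and 80.0 CPM on chow and 141, 164 and 166 on HFD, so its diets do not overlap. It was called higher, with a log2 fold change of 0.84 ± 0.09 (SE; edgeR, adjusted p = 4.2e-05) that exceeds every value among the 935. The diets overlapped at chr13:24966678-24976186, with 140.4, 119.5 and 138 CPM on chow and 104, 127 and 143 on HFD, and at chr1:184406498-184415924. At chr9:36873992-36883382 every HFD library was below every chow library, but the region was not called.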

How the data were processed

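Per the submitters' processing notes, reads were processed with Bowtie 0.12.7 and MACS 1.4.0rc2 for chromatin and TopHat 1.4.0 for mRNA, on mm9. Per the file headers, MACS pooled the replicates of a diet, used IgG as its control with a p-value cutoff of 1e-06, and the lists were then filtered to a false discovery rate of 10 percent or less. The deposited lists give tag counts, a score (the negative log10 p-value times a constant) and fold enrichment, a ratio. The authors deposited raw counts per union peak and gene, and a DESeq2 table of mean normalized signal, log2 fold changes and p-values.

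Counts of all peaks were fitted with edgeR 4.0.16 (filterByExpr, TMM, quasi-likelihood F test, diet only, Benjamini-Hochberg, threshold 0.05). CPM uses TMM-scaled totals, and densities per library add 1 count. Fits were tested on simulated data. DESeq2 1.42.0, other scalings, region definitions, a replicate block and fits without each library were alternatives. Named regions are the called ones whose diets do not overlap, the 6 densest, the 6 most enriched per list, and the 3 on either side of the length limit; called neighbours and the flanking H3K4me1 peaks were named after their values were seen. Regions and lists were chosen with earlier results of these data known. Coordinates are mm9 and 1-based. mm9 sequence and genes were not used here. Header directories differ by diet, so batch and diet cannot be told apart.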

Additional observations from a re-analysis of the deposited data

How the results depend on the processing

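Of the 21 called regions, 21 stayed called with DESeq2 size factors and without a count filter, 19 with total counts, and none changed direction under any alternative. DESeq2's own test gave 6 higher and 5 lower, and 3 flanking H3K4me1 peaks called in place of 6. Chow and HFD libraries of equal replicate number had deviations that correlated at 0.02, −0.13 and 0.09 in H3K27ac. In H3K4me1 the values were 0.06, −0.14 and −0.13. Deviations from means of 3 libraries cannot settle whether the libraries are paired, and the labels do not say. With the replicate number as a block there were 10 higher and 6 lower regions, against 127 and 69 of all 11235 peaks. The same fit gave 10 calls among the 422 flanking H3K4me1 peaks, against 161 higher and 198 lower of all 16834 H3K4me1 peaks. Keeping only the 765 regions at least 1000 bases from every H3K4 mark gave 7 higher and 8 lower. The 133 regions under 2000 bases gave 1 and 0, and the 181 in both lists gave 1 and 0. Over all peaks 1.2% were higher and 0.712% lower. Within 2000 bases, 0 of 227 H3K4me1 peaks were called by edgeR (39 at an unadjusted p under 0.05, 0 by DESeq2). Over all H3K4me1 peaks edgeR called 0.683% higher and 0.879% lower. The sets with 0 lower had 17 and 9 lower regions at an unadjusted p under 0.05, and 0 by DESeq2 among those with an adjusted p. These subsets hold fewer features. Leaving out each library in turn gave 3 to 22 higher regions, 3 to 22 lower ones and 1 to 47 flanking H3K4me1 calls; the cause was not tested. The density differences then ranged from −0.22 to −0.20 and from −0.74 to −0.70, with an exact p of 0.0625, the smallest that 5 libraries allow. Diet differences in mRNA of the nearest gene were not run, since no mm9 annotation was used here. Counts of 83 to 246 in the median region limit what small differences could be detected, and the exact tests of 3 against 3 libraries could not pass 0.05.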
